A study of Caenorhabditis elegans with 12 samples.

Results

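On the *C. elegans* X chromosome, 136 genes had higher transcript levels in germlines that lack MES-4 and returned close to the wild-type level when LIN-54 was lost as well. They were chosen from 2355 X-linked genes measured on the array, 17085 genes in all, by 3 differences between genotype means of log2 level. The *mes-4* mean lay at least 0.6 above wild type, the mean of the *lin-54*; *mes-4* double mutant lay at least 0.6 below *mes-4*, and the double mutant lay within 0.4 of wild type. A gene's level was the mean of its probe sets that name no other gene. Of 141 genes that met these limits, 5 (*sdc-1*, *hpl-1*, *ced-8*, *nrde-3* and *ife-4*) were left out by name. The levels of *mes-4*, double-mutant and wild-type germlines therefore chose these genes and are given as a description. The *lin-54* arrays played no part in the choice, and the response to loss of LIN-54 is what was tested.

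The tissue was the germline of hermaphrodites grown at 20° and dissected 24 hr past L4, and each piece ran from the mitotic tip to late pachytene. There were 3 arrays each, labelled as separate germline samples, of *mes-4(ok2326)*, *lin-54(n3423)*, the double mutant with both alleles, and wild type (N2). By the study's methods the mutants were M+Z−, the offspring of heterozygous mothers, which can pass on maternal product. The study reports that *lin-54(n3423)* M+Z− adults had no detectable LIN-54 transcript or protein. In *mes-4(ok2326)* M+Z− germlines it reports that immunostaining found neither MES-4 protein nor its histone mark. Each array pooled the germlines of many animals, and RNA was amplified before hybridization. Values are deposited log2 levels after the robust multichip average (RMA), a method that normalizes arrays and sums up the probes of a probe set. In a dissected tissue, fewer cells that express a gene and less RNA per cell cannot be told apart.

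MES-4 is a histone methyltransferase that places methyl groups on lysine 36 of histone H3, a mark carried by germline-expressed genes that lie mostly on the autosomes. The X chromosomes of the hermaphrodite germline are held at low levels of transcription, with the help of a Polycomb-type mark on lysine 27 of the same histone, and MES-4 helps to keep that mark concentrated on the X. LIN-54 is a DNA-binding subunit of DRM, the worm form of the DREAM complex of E2F, DP and Rb-like proteins, which regulates cell cycle, germline and developmental genes.

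The labels were checked with the targeted genes. *lin-54* read 6.40, 7.76 and 6.32 in *lin-54* germlines and 6.81, 6.65 and 6.33 in the double mutant, against 10.8 to 10.9 on every *mes-4* and wild-type array. *mes-4* read 9.41 ± 0.09 (mean ± SD, n = 3 here and below) in *mes-4* germlines and 9.80 ± 0.18 in the double mutant, against 10.14 ± 0.04 in wild type, and is a weak check because the deletion leaves part of the transcript. Sperm markers moved with the loss of LIN-54. The median of 22 of them was 7.08 to 9.88 in *lin-54* and 7.58 to 10.1 in double-mutant arrays, against 6.24 to 6.60 in *mes-4* and 6.33 to 6.45 in wild type. The gonadal sheath innexin *inx-8* read 7.21 to 8.10 in *lin-54* and 7.64 to 8.74 in the double mutant, against 9.43 to 10.1 in *mes-4* and 9.79 to 10.5 in wild type. The median of 13 sheath markers stayed between 5.76 and 6.08 on all arrays. Germline markers such as *glh-1* and *gld-1* were present throughout (median of 14 markers 10.07 to 10.95). None of the listed marker genes is among the 136, and the part of these cells in the values below was not tested.

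The values used for the choice show the size of the change. The median difference over the 136 genes was 0.88 for *mes-4* minus wild type (0.62 to 1.92), −0.88 for the double mutant minus *mes-4* (−1.57 to −0.60) and 0.02 for the double mutant minus wild type (−0.34 to 0.39). Just inside the first limit lay *F52D10.2* (0.615) and *mtm-5* (0.617), and just outside it *C46H3.2* (0.596) and *lido-1* (0.584). For the second limit, *F13C5.2* and *acl-12* lay inside at −0.60 and −0.601, and *clc-7* and *ndrr-2* outside, both at −0.598. For the third, *F34H10.3* (0.387) and *mrp-5* (0.382) lay inside, and *rga-8* (0.408) and *got-2.2* (−0.414) outside. Without *mes-4* replicate 3, 78 genes met the limits, 76 of them among the 136.

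The median level of the 136 genes was 7.38, 7.47 and 8.02 on the *mes-4* arrays and 6.46, 6.24 and 6.02 on the *lin-54* arrays. It was 6.56, 6.97 and 6.63 on the double-mutant arrays and 6.83, 6.69 and 6.57 on the wild-type arrays. All 3 *lin-54* arrays thus lay below all 3 wild-type arrays and below all 3 double-mutant arrays, while double-mutant and wild-type arrays overlapped. Within a genotype most of the genes moved together. 99 of the 136 were lowest on *mes-4* replicate 1, and 98 were highest on *lin-54* replicate 1, 116 on double-mutant replicate 2 and 97 on wild-type replicate 1. The lowest array was *lin-54* replicate 3 for 96 genes and wild-type replicate 3 for 93. *lin-54* replicate 1 also had the highest sperm marker median of its genotype (9.88), and double-mutant replicate 2 the lowest (7.58). Double-mutant replicate 2 had the lowest median of the 14 germline markers as well (10.1, against 10.6 or more on the other arrays of its genotype). The median of 13 intestine markers was 8.18, 7.49 and 6.86 on the *mes-4* arrays, 7.78, 7.38 and 6.39 on the *lin-54* arrays and 6.82, 6.62 and 6.86 on the double-mutant arrays, against 7.80, 7.18 and 7.29 on the wild-type arrays. In *lin-54* the order of the arrays was that of the 136 genes, and in *mes-4* it was the reverse. Whether these differences among arrays bear on the genes was not tested.

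**Figure D1:**
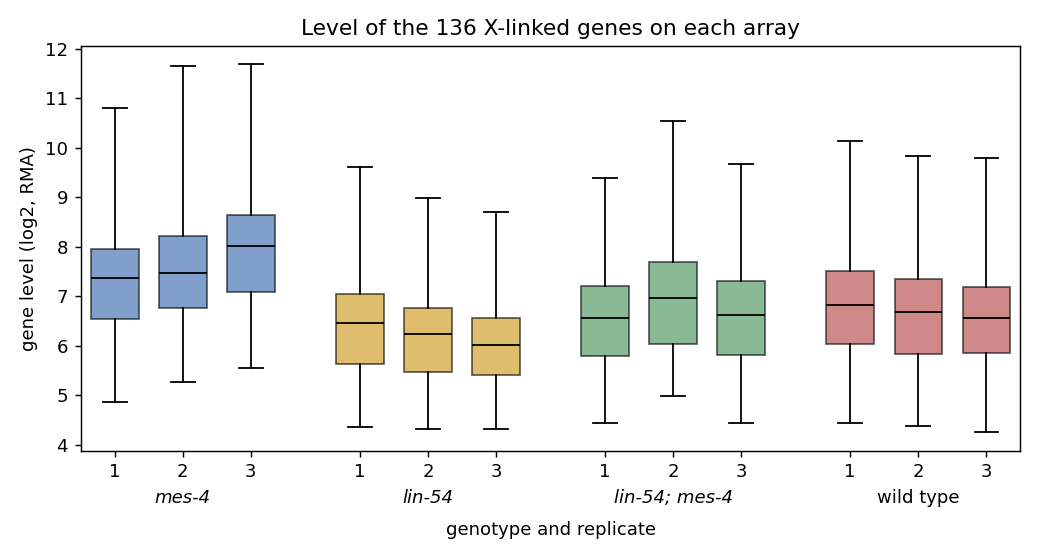
Levels (log2, RMA) of the 136 X-linked genes on each of the 12 arrays, by genotype and replicate; boxes span the quartiles with the median as a line, and whiskers the full range. The *mes-4* medians are 7.38 to 8.02, the *lin-54* medians 6.02 to 6.46, and the double-mutant (6.56 to 6.97) and wild-type (6.57 to 6.83) medians overlap.

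Without LIN-54 the genes lay below the wild-type level. The mean of the *lin-54* arrays was below the wild-type mean for 131 of the 136 genes (96.3%), against 39.3% of all X-linked genes. *lin-54* had the lowest mean of the 4 genotypes for 130 of them (95.6%, against 28.7%). The limits keep *mes-4* from being the lowest, so that the 28.7%, which has no such limit, is not a like comparison. Among the 149 X-linked genes still raised in the double mutant, described below, the share was 87.2%. The median difference, *lin-54* minus wild type, was −0.43, with quartiles of −0.63 and −0.28 and a range of −1.44 to 0.10. It was 0.04 over all X-linked genes and 0.05 over all genes. With each array centred on its autosomal genes the median over the 136 was −0.50.

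For 80 of the 136 genes (58.8%) every *lin-54* array read below every wild-type array, and for none did every *lin-54* array read above. Such a separation occurred for 10.4% of all genes and 13.8% of X-linked genes below wild type, and for 16.8% and 16.5% above it. Among the 149 still-raised genes it occurred for 68 (45.6%) below wild type and for 6 (4.03%) above it. In limma's moderated test on all 12 arrays, with Storey q-values over all probe sets and each gene taken by its most significant probe set, 28 of the 136 (20.6%) were called lower in *lin-54* than in wild type at q of 0.05 or less and 0 higher. The background was 3.47% of all genes and 4.29% of X-linked genes lower, and 2.58% and 1.91% higher. At an unadjusted p under 0.05, 79 were lower and 0 higher, where 9.47% of all genes and 12.2% of X-linked genes were lower, and 12.4% and 11.6% higher. Since the wild-type arrays also took part in the choice of the genes, the difference shares 3 of its 6 arrays with the rule. The spread used by the test came from all 12 arrays, so it also drew on the *mes-4* and double-mutant arrays of the rule. With only the 2 genotypes modelled, 50 were called lower, against 755 of all 17085 genes.

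The number of calls rested on single arrays, among the 136 and over all genes. It was 8, 10 and 10 without wild-type replicate 1, 2 or 3. It was 52, 9 and 6 without *lin-54* replicate 1, 2 or 3, and 43 without *mes-4* replicate 3. Over all 17085 genes the lower calls, 593 with every array, were 147, 320 and 240 without wild-type replicate 1, 2 or 3. They were 805, 275 and 143 without *lin-54* replicate 1, 2 or 3, and 724 without *mes-4* replicate 3. The median difference over the 136 genes stayed between −0.56 and −0.34. 5 of the 28 calls held whichever array was left out.

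**Figure D2:**
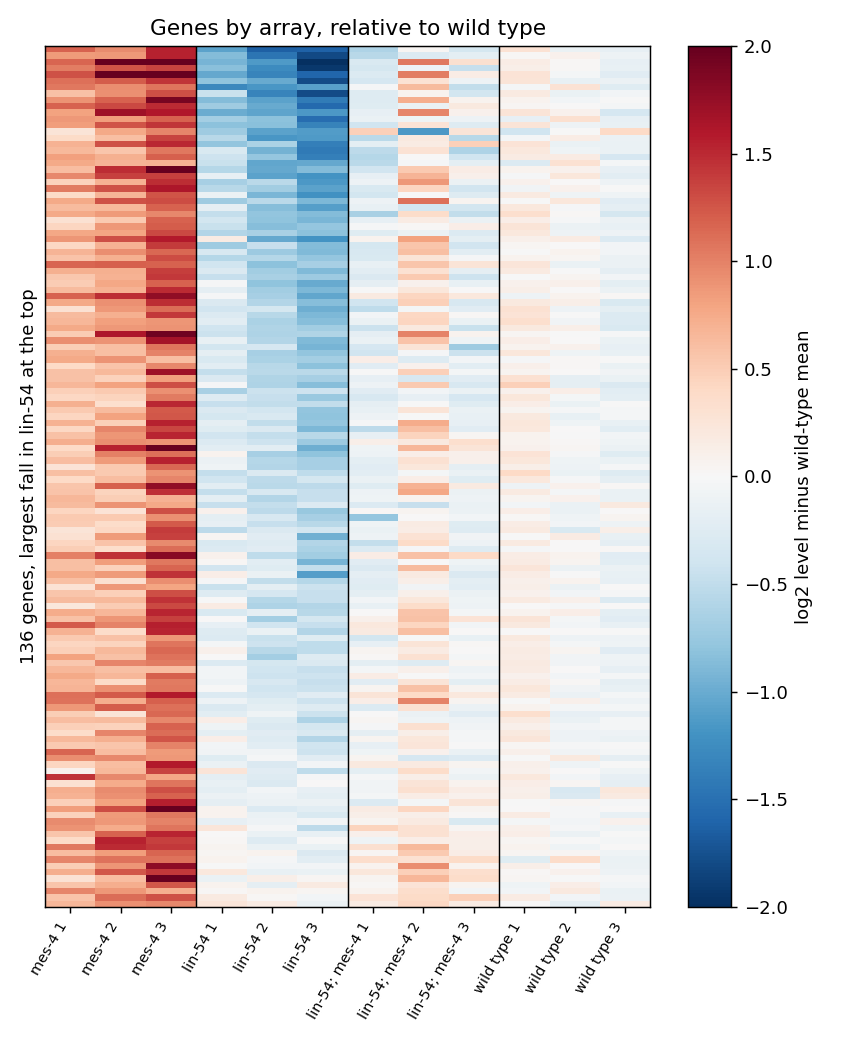
Levels of the 136 genes on each array, as the log2 difference from the gene's wild-type mean, with genes ordered by *lin-54* minus wild type. The *mes-4* columns are red by the choice of the genes, most of the *lin-54* columns are blue, and the double-mutant columns are mixed, with replicate 2 the highest for 116 genes.

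The 5 calls that held with any array left out were *meg-4*, *ent-5*, *F47G3.3*, *R09F10.8* and *F16B12.6*. *meg-4* (C36C9.1) encodes an intrinsically disordered protein that helps to assemble P granules, the germ granules of *C. elegans*. It read 9.08, 9.19 and 9.41 in *mes-4*, 7.17, 6.97 and 6.19 in *lin-54*, and 7.66, 8.28 and 7.89 in the double mutant, against 8.25, 7.84 and 7.87 in wild type. All *lin-54* arrays were the lowest and the double mutant overlapped wild type. *meg-4* was lower in *lin-54* than in wild type by −1.19 on the log2 scale (SE 0.17, limma q = 0.00343).

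*ent-5* (F16H11.3) encodes an equilibrative nucleoside transporter. It read 10.45, 10.69 and 10.79 in *mes-4*, 8.60, 8.17 and 7.50 in *lin-54*, and 9.07, 9.33 and 8.97 in the double mutant, against 9.55, 9.45 and 9.29 in wild type. No *lin-54* array reached any array of another genotype, and the difference from wild type was −1.34 (SE 0.22, limma q = 0.00662). *ent-2*, a second transporter of this family, was also called (−0.84, SE 0.19, limma q = 0.0235), but not without wild-type replicate 2 or 3 or *lin-54* replicate 2 or 3 (highest q 0.111).

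The other 3 are known here by clone names only, and no role is given for them. *F47G3.3* had the largest difference of the 136 genes by gene mean (−1.44, SE 0.21, limma q = 0.00404; the most significant probe set of *K10B3.5* differed by −1.77 and its gene mean by −1.18), with 5.24, 4.68 and 4.70 in *lin-54*, against 6.61, 6.19 and 6.14 in wild type. *R09F10.8* differed by −1.38 (SE 0.23, limma q = 0.00662) and *F16B12.6* by −1.09 (SE 0.18, limma q = 0.00675). All 3 had *lin-54* arrays below all wild-type arrays.

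Other genes with large differences included *mom-1* (T07H6.2), the worm Porcupine, which attaches the lipid that Wnt ligands need for secretion. It read 7.51, 8.09 and 8.32 in *mes-4*, 6.02, 6.18 and 5.44 in *lin-54*, and 6.62, 6.98 and 7.28 in the double mutant, against 7.08, 6.67 and 6.68 in wild type. The *lin-54* arrays were below all others, and the difference from wild type was −0.93 (SE 0.25, limma q = 0.0417). *acl-4* (F49H12.6), a glycerol-3-phosphate acyltransferase of lipid synthesis, read 6.94, 6.75 and 6.42 in *lin-54*, against 7.89, 7.76 and 7.80 in wild type, and its most significant probe set differed by −1.39 (SE 0.39, limma q = 0.0487). Both genes had *lin-54* arrays that did not overlap wild type. Both calls were lost without any 1 of the wild-type arrays, *lin-54* replicate 2 or 3, or *mes-4* replicate 2 (*acl-4* also without double-mutant replicate 3), with highest q of 0.164 for *mom-1* and 0.142 for *acl-4*.

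*vem-1* (K07E3.8), a membrane-associated progesterone receptor homolog that acts in axon guidance, had the largest rise in *mes-4* among the 136 genes (1.92). It read 8.35, 9.21 and 9.75 in *mes-4*, 6.25, 6.04 and 5.18 in *lin-54*, and 6.88, 8.23 and 7.51 in the double mutant, against 7.32, 7.21 and 7.01 in wild type. The *lin-54* arrays were the lowest, and the double-mutant arrays spread on both sides of wild type. The difference of −1.35 from wild type (SE 0.39) did not pass the test (limma q = 0.0546).

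Of the other 9 genes with the largest rise in *mes-4*, the clone-named *C49F5.6* (1.85) was lower in *lin-54* (−1.31, SE 0.32, limma q = 0.0306), as were *F53B1.2* (1.36 in *mes-4*, limma q = 0.0453 in *lin-54*) and *F16B12.6* (1.33). The *C49F5.6* call was lost without any 1 of the wild-type arrays or *lin-54* replicate 2 or 3 (highest q 0.134). The *F53B1.2* call was lost without any 1 of the wild-type or *lin-54* arrays or double-mutant replicate 3 (highest q 0.155). *K07E3.1*, *ntfc-1*, *rgs-11* (a regulator of G-protein signalling), *mrp-5* (an ABC transporter that exports heme), *hst-6* (a heparan sulfate sulfotransferase) and *rab-6.2* (a GTPase of Golgi traffic) were raised by 1.35 to 1.52 in *mes-4*. They had *lin-54* minus wild-type differences of −0.13 to −0.82 and none was called.

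At the other end, 5 of the 136 genes had *lin-54* means at or above wild type. They are *acl-12*, *igcm-4*, *lido-5*, *rabr-1* and *K09F5.6*, with differences of 0.01 to 0.10. *acl-12* (C01C10.3), another acyltransferase gene, read 6.65, 6.57 and 6.28 in *lin-54*, against 6.41, 6.23 and 6.57 in wild type, so that the groups overlapped (limma q = 0.403). Its level was 7.07, 7.31 and 7.37 in *mes-4* and 6.56, 6.81 and 6.57 in the double mutant. *akt-2* (F28H6.1), one of the worm Akt kinases downstream of the insulin receptor, and *inx-5* (R09F10.4), an innexin of gap junctions, also stayed near wild type. *akt-2* read 5.33, 5.48 and 5.36 in *lin-54*, against 5.62, 5.21 and 5.75 in wild type, and *inx-5* 5.98, 6.05 and 6.04, against 6.15, 6.19 and 6.14. The *akt-2* arrays overlapped, while the *inx-5* arrays did not by a narrow margin, and neither was called (limma q = 0.315 and 0.467).

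**Figure D3:**
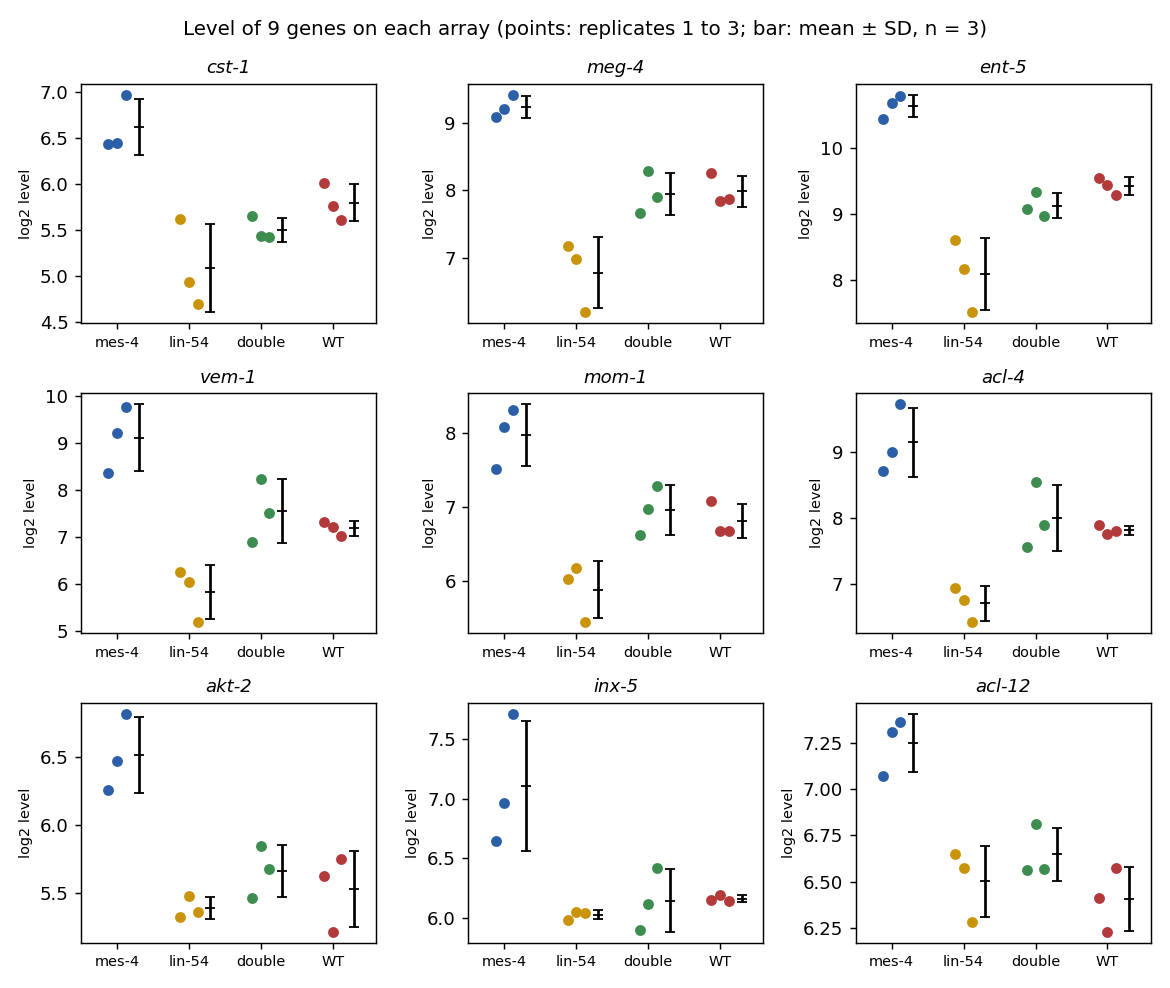
Level (log2) of 9 of the 136 genes on each array, with 3 points per genotype in replicate order and the mean ± SD (n = 3) beside them; WT is wild type and double the *lin-54*; *mes-4* mutant, and each panel has its own vertical scale. In *meg-4*, *ent-5*, *vem-1*, *mom-1* and *acl-4* the *lin-54* points lie below all others, whereas in *acl-12* and *akt-2* they overlap wild type.

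*cst-1* (F14H12.4) encodes a kinase of the MST family, the start of the Hippo kinase cascade. It read 6.43, 6.45 and 6.97 in *mes-4*, 5.62, 4.94 and 4.69 in *lin-54*, and 5.65, 5.43 and 5.42 in the double mutant, against 6.01, 5.76 and 5.61 in wild type. *lin-54* replicate 1 lay just above the lowest wild-type array, and the other *lin-54* arrays lay below all others. Differences of means were 0.82 for *mes-4* minus wild type, −0.29 for the double mutant minus wild type and −0.71 for *lin-54* minus wild type. By its most significant probe set *cst-1* was lower in *lin-54* (−0.82, SE 0.22, limma q = 0.0436). The call was lost without any 1 of the wild-type arrays, *lin-54* replicate 2 or 3, or double-mutant replicate 1 or 3, with q up to 0.171. The double mutant differed from *lin-54* by 0.52 (SE 0.22), which did not pass the test (limma q = 0.225). Both *cst-1* probe sets are of the type that can be shared between transcripts, and *cst-2*, a close paralog, has no probe set of its own, so that signal from the pair cannot be told apart.

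Among 7 measured genes of a Hippo list, 4 of them X-linked, 3 were called lower in *lin-54* than in wild type and 0 higher. The background was 3.47% and 2.58% of all genes, and 4.29% and 1.91% of X-linked genes. Besides *cst-1* these were *wts-1*, the LATS-type kinase that acts next in the cascade (−0.72, SE 0.15, limma q = 0.0187), and *sav-1*, its Salvador-type scaffold (−0.53, SE 0.14, limma q = 0.0443). The calls of *wts-1* and *sav-1* were not checked with arrays left out. *yap-1*, the coactivator that the cascade restrains, differed by 0.22 and was not called. The X-linked *ftt-2* was also not called in *lin-54* (−0.76, limma q = 0.147). Its mean lay 1.81 above wild type in *mes-4* and 1.48 above it in the double mutant. *wts-1* is autosomal, and neither it nor the X-linked *sav-1* met the limits for a rise in *mes-4*.

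The same comparison was made for the X-linked genes that stayed raised in the double mutant, 149 genes with *mes-4* at least 0.6 above wild type, the double mutant less than 0.6 below *mes-4* and at least 0.6 above wild type. Their median *lin-54* minus wild-type difference was −0.40, *lin-54* had the lower mean for 87.2% of them, and 14 (9.4%) were called lower and 3 (2.01%) higher. Their median rise in *mes-4* was 1.80, against 0.88 over the 136 restored genes as a property of the limits. The restored and the still-raised genes were thus both below wild type in *lin-54* by similar medians, and the difference between the sets was not tested.

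**Figure D4:**
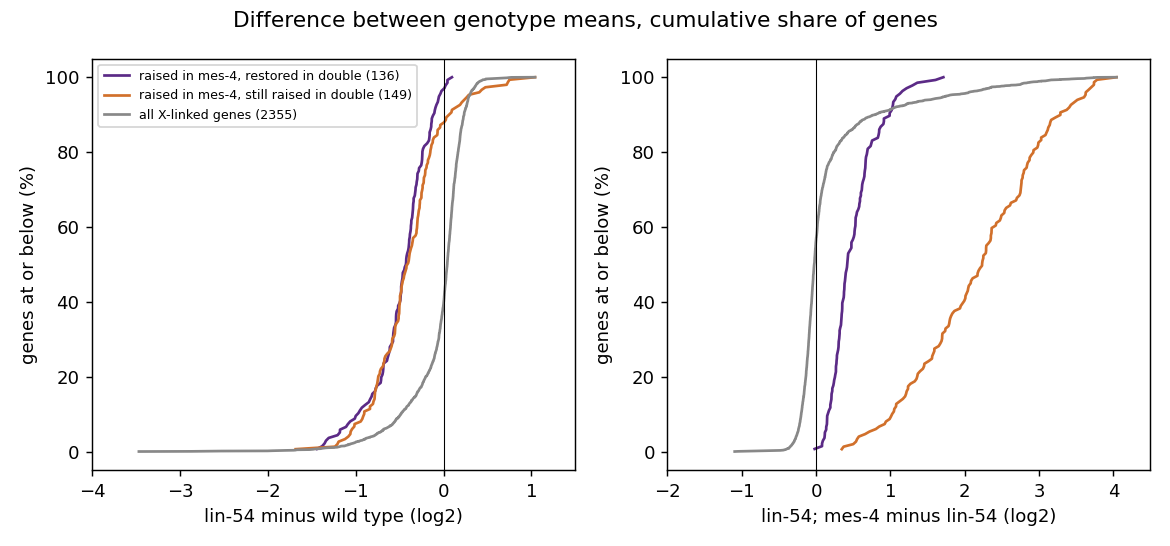
Cumulative share of genes (%) by the difference of genotype means on the log2 scale, for the 136 restored genes, the 149 genes still raised in the double mutant and all 2355 X-linked genes. On the left, *lin-54* minus wild type has medians of −0.43, −0.40 and 0.04; on the right, the double mutant minus *lin-54* has medians of 0.42, 2.24 and −0.02.

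Against *lin-54* alone, the double mutant shows the change on loss of MES-4 where LIN-54 is missing. The median difference was 0.42 over the 136 genes, with a range of −0.02 to 1.71, and 135 had the higher mean in the double mutant. The exception was *egl-6*, a G protein-coupled neuropeptide receptor. For 69 genes (50.7%) every double-mutant array read above every *lin-54* array, against 6.32% of all genes and 15.9% of X-linked genes. Because the rule held the double mutant within 0.4 of wild type, this difference repeats most of that between *lin-54* and wild type, and it is not independent of it.

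In limma's test 21 of the 136 genes (15.4%) were called higher in the double mutant than in *lin-54* and 0 lower. The background was 1.79% of all genes and 8.96% of X-linked genes higher, and 1.14% and 0.255% lower. At an unadjusted p under 0.05, 78 were higher and 0 lower, where 5.93% of all genes and 16.9% of X-linked genes were higher, and 9.96% and 7.77% lower. The count was 45, 6 and 7 without *lin-54* replicate 1, 2 or 3, and 9 and 10 without double-mutant replicate 2 or 3. Over all 17085 genes the higher calls, 305 with every array, were 455, 190 and 162 without *lin-54* replicate 1, 2 or 3. They were 221 and 203 without double-mutant replicate 2 or 3. The 149 still-raised genes, which the limits hold above wild type, had a median difference of 2.24 and 134 calls (89.9%).

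*meg-4* was higher in the double mutant by 1.16 (SE 0.17, limma q = 0.00205), with 7.66, 8.28 and 7.89 against 7.17, 6.97 and 6.19 in *lin-54*. *vem-1* was higher by 1.71 (SE 0.39, limma q = 0.0346), with 6.88, 8.23 and 7.51 against 6.25, 6.04 and 5.18, and *acl-4* by 1.73 at its most significant probe set (SE 0.39, limma q = 0.0324). The arrays did not overlap for any of the 3. The *meg-4* call held whichever array was left out. The calls of *vem-1* and *acl-4* were lost without any 1 of the wild-type arrays, *lin-54* replicate 2 or 3, or double-mutant replicate 2 or 3 (*vem-1* also without *mes-4* replicate 2), with q up to 0.166 and 0.138. The calls that also held throughout were *F16B12.6*, *K10B3.5*, *R04E5.8* and *W01C8.5*, all known here by clone names.

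By function, 65 of the 136 genes were given a role from general knowledge and placed in 9 classes after their values had been seen. The other 71, many with clone names only, were given none. The classes describe these genes and carry no test. Their counts stand beside the shares over the 136 genes in *lin-54* against wild type. Of the 136, 96.3% had the lower mean, 58.8% lay below without overlap and 20.6% were called lower. Over all genes these shares were 37.6%, 10.4% and 3.47%, and over X-linked genes 39.3%, 13.8% and 4.29%. Class medians are of gene means. Differences given for single genes in the classes are those of the most significant probe set unless called means. For genes with several probe sets they can be larger than the gene mean.

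The 3 germ granule genes were *meg-1*, *meg-3* and *meg-4*, whose proteins help to form or segregate P granules in the embryo. *meg-1* read 9.62, 8.98 and 8.51 in *lin-54*, against 10.15, 9.84 and 9.80 in wild type. *meg-3* read 8.41, 7.93 and 7.80 in *lin-54*, against 8.82, 8.51 and 8.44 in wild type. As for *meg-4*, the *lin-54* arrays lay below all wild-type arrays, but the differences of −0.93 and −0.54 for *meg-1* and *meg-3* did not pass the test (limma q = 0.0678 and 0.0738). *meg-4* was the only one of the 3 that was called.

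The 15 signalling genes had a median difference of −0.44 in *lin-54*. All 15 had *lin-54* means below wild type, 8 without overlap, and 4 were called. The 4 were *cst-1*, *mom-1*, *mes-1* and *aak-2*. *mes-1*, a receptor tyrosine kinase-like protein that keeps the germline lineage from dividing symmetrically in the embryo, differed by −0.81 at its most significant probe set (limma q = 0.0336). *aak-2*, the catalytic subunit of the energy sensor AMPK, differed by −1.13 at its most significant probe set (gene mean −0.695, limma q = 0.0381). Both calls were lost without any 1 of the wild-type arrays or *lin-54* replicate 2 or 3 (highest q 0.140 and 0.147).

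Signalling genes that were not called covered other pathways. *sel-12*, a presenilin of the gamma-secretase that cleaves Notch receptors, differed by −0.57, *nck-1*, an SH2/SH3 adaptor, by −0.67, *daf-3*, a co-SMAD of the dauer TGF-beta pathway, by −0.50 and *akt-2* by −0.12 (limma q = 0.117, 0.119, 0.143 and 0.315). By gene mean the differences were −0.54 for *nck-1*, −0.30 for *daf-3* and −0.14 for *akt-2*. *rgs-11* (−0.82, limma q = 0.122) had been among the 10 largest rises in *mes-4*. *sid-3*, a tyrosine kinase needed for import of silencing RNA, *arr-1*, the arrestin, *vang-1*, of the planar polarity pathway, and *dgk-2*, a diacylglycerol kinase, also did not pass the test.

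The 15 genes of the secretory and endosomal pathway had a median difference of −0.43 and 0 calls, although all 15 had the lower mean in *lin-54* and 10 had no overlap with wild type. The lowest was *erd-2.1*, the receptor that returns resident proteins to the endoplasmic reticulum, at a gene mean of −0.95 (limma q = 0.0571). *rab-6.2* read 8.05 ± 0.75 in *mes-4* and 6.07 to 6.27 on the *lin-54* arrays, against 6.66 to 6.73 in wild type. *vha-12*, a subunit of the proton-pumping V-ATPase, differed by −0.57 (limma q = 0.144), and *dnj-7* and *calu-1*, an ER cochaperone and a calcium-binding ER protein, by −0.49 and −0.12.

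The 7 genes of membrane lipids had a median difference of −0.47, with 2 calls, *acl-4* and *mtm-5*. *mtm-5*, a myotubularin-related protein, differed by −0.41 (SE 0.11, limma q = 0.0424). That call was lost without any 1 of the wild-type arrays, *lin-54* replicate 2 or 3, *mes-4* replicate 1, or double-mutant replicate 1 or 3 (highest q 0.149). Of the acyltransferase genes, *acl-4* and *acl-5* lay below wild type on every *lin-54* array and *acl-12* overlapped it, with differences of means of −1.11, −0.85 and 0.10. *sms-2*, a sphingomyelin synthase, differed by −0.98 at its most significant probe set (limma q = 0.0540).

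In small-molecule metabolism (5 genes, median −0.54) all 5 had *lin-54* arrays below wild type without overlap and 1 was called. It was *tps-1*, a trehalose phosphate synthase (−0.47, SE 0.10, limma q = 0.0210), and the call was lost without any 1 of the wild-type arrays or *lin-54* replicate 2 or 3 (highest q 0.0903). *pccb-1*, a subunit of propionyl-CoA carboxylase, differed by −0.99 at its most significant probe set (gene mean −0.64, limma q = 0.0527). Of the 3 transporters (median −0.84), *ent-2* and *ent-5* were called and *mrp-5* was not (−0.49, gene mean −0.37, limma q = 0.238).

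The 8 genes of the cell surface, junctions and skeleton had a median difference of −0.46 and 0 calls. They included *inx-3* and *inx-5*, the claudin-like *clc-2*, the spectrin *spc-1*, the Robo receptor *sax-3*, the syndecan *sdn-1*, *vem-1* and *unc-84*, a SUN protein of the nuclear envelope. *unc-84* came nearest to a call, at −0.92 by its most significant probe set (SE 0.26, limma q = 0.0509) and −0.48 by gene mean. *clc-2* was near wild type at −0.18 (gene mean −0.14).

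The 7 gene regulators had a median difference of −0.40 and 1 call, the nuclear receptor *nhr-40* (−0.53, SE 0.13, limma q = 0.0299). That call was lost without wild-type replicate 1 or 2 or any 1 of the *lin-54* arrays (highest q 0.114). *taf-11.1*, a TFIID subunit, differed by −0.53, and *spr-3*, a zinc finger repressor of presenilin genes, by −0.61 (gene mean −0.32). *ain-1*, a GW182-type protein of microRNA silencing, differed by −0.22 (gene mean −0.16). None of them was called. In the class of cell death and mitophagy, *crn-4*, a nuclease that degrades DNA of dying cells, and *dct-1* had a median difference of −0.26 and 0 calls.

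The pathways of these genes were read from 20 lists, of which 311 genes were measured and 34 are among the 136. Of the other 277 listed genes, 63 of them X-linked, 28 (10.1%) were called lower in *lin-54* and 5 (1.81%) higher, where the background was 3.47% and 2.58% of all genes and 4.29% and 1.91% of X-linked genes. Among the 34 the counts were 7 (20.6%) and 0. In the double mutant against *lin-54*, 15 of the 277 (5.42%) were called higher and 5 (1.81%) lower, and 3 of the 34 (8.82%) higher and 0 lower, where the background was 1.79% and 1.14% of all genes and 8.96% and 0.255% of X-linked genes.

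Counts by list stand beside a background of 3.47% of all genes lower and 2.58% higher in *lin-54*, and differences between lists were not tested. Of 20 membrane and nucleoside transporters, 6 were called lower in *lin-54* and 0 higher. Of 13 genes of a list of folding genes and cochaperones, 4 were lower and 1 higher. The 4 were *hsp-4*, *pdi-3*, *pdi-6* and *enpl-1*, all chaperones or disulfide isomerases. The 1 was *dnj-12*, listed as a cochaperone. Of 9 measured phosphoinositide genes 4 were lower, *mtm-5*, the kinase *age-1* and the phosphatases *daf-18* and *unc-26*, and 0 higher. Of 25 innexins 3 were lower (*inx-8*, *inx-11* and *inx-12*) and 1 higher (*inx-21*), and both innexins among the 136 were uncalled. Of 29 genes of phospholipid synthesis 2 were lower and 0 higher, and of 19 V-ATPase subunits, 12 Notch and gamma-secretase genes and 30 genes of axon guidance 0 were called in either direction.

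Further lists gave small counts. In *lin-54* against wild type there were 2 lower and 1 higher of 22 junction and polarity genes, 1 and 1 of 5 spectrin and ankyrin genes, and 2 and 0 of 9 genes of Wnt ligand making. There were 1 lower and 0 higher of 18 TGF-beta genes, of 12 genes of N-glycan and GPI-anchor assembly, of 8 nuclear envelope genes and of 9 microRNA silencing genes, and 2 lower and 0 higher of 23 general transcription genes. None was called of 11 genes of propionate breakdown and of 11 apoptotic nucleases.

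In wild type the 136 genes covered a wide range of levels, 4.38 to 9.93. 101 of them (74.3%) lay above the median probe set (5.89) on all 3 wild-type arrays, against 847 of the 2355 X-linked genes and 85.2% of the genes still raised in the double mutant. The *lin-54* minus wild-type difference had a median of −0.49 over 106 genes at or above the median probe set, with 69 non-overlapping and 25 called, and of −0.25 over the 30 dimmer genes, with 11 non-overlapping and 3 called. The median rise in *mes-4*, held at 0.6 or more by the rule, was 0.88 over the brighter and 0.89 over the dimmer genes. The non-overlapping genes were not counted by level over all genes. With dim probe sets, those below the median, left out of the fit, 35 of 115 of these genes were called lower in *lin-54*. In that fit 719 of 8581 genes in all were called lower, a larger share than the 3.47% of the main fit. Whether the level bears on the *lin-54* difference was not tested. 67 of the 136 genes had at least 1 probe set of the type shared between transcripts.

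Few of the genes lie next to each other. Among protein-coding genes on the X, 8 of the 136 (5.88%) have another of the 136 as a measured neighbour, in 4 pairs, whereas 220 of 2263 measured genes (9.72%) have one as a neighbour. The pairs are *sms-2* and *arr-1*, *F53B3.5* and *vang-1*, *spr-3* and *tmyb-1*, and *F16B12.4* and *F16B12.6*. *lin-54* minus wild type was −0.68 for *sms-2* and −0.39 for *arr-1*, −0.39 for *F53B3.5* and −0.24 for *vang-1*, −0.32 for *spr-3* and −0.19 for *tmyb-1*, and −0.12 for *F16B12.4* and −1.09 for *F16B12.6*. Differences within pairs were not tested.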

How the data were processed

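The deposited values are log2 levels of probe sets from the Affymetrix *C. elegans* GeneChip, made by the authors with affy, quantile normalization and RMA (versions not given). They were not normalized again. Of 22548 probe sets, 20766 were annotated to 1 gene, 887 to several and 895 to none, and 65 matched no gene of the WBcel235 annotation, which was used only for names, chromosomes and neighbours. The remaining 20701 gave 17085 genes. Limma 3.58.1 (R 4.3.3) modelled each genotype by its own mean over the 12 arrays. Storey q-values took in every non-control probe set (lambda 0 to 0.9 in steps of 0.05), and a gene took its most significant probe set. The fit was run on simulated data in which every probe set and array had independent noise. Such data hold no shift shared by many genes of an array, so the run cannot speak to calls under such shifts. Array medians were 5.81 to 5.93, and 3 arrays per genotype limit the precision. Columns of other comparisons were not used.

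The members, lists and comparisons were chosen with earlier results of these data known, so no list count is independent evidence. Genes named are *cst-1*, the largest differences in each comparison (10 in *mes-4*, 10 falls and 5 rises in *lin-54*, 5 and 5 between the double mutant and *lin-54*), members of the lists, genes at the limits and neighbours. *meg-1*, *meg-3*, *erd-2.1*, *aak-2*, *tps-1*, *nhr-40*, *R04E5.8* and *W01C8.5* were named after their values were seen. Promoter sequences were not analysed here. The counts of 1 list are not reported here.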

Additional observations from a re-analysis of the deposited data

How the results depend on the processing

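The number of genes met by the limits was 136, and it was 78 without *mes-4* replicate 3 and up to 178 without *mes-4* replicate 1, of which 76 and 134 were among the 136. The median differences kept their sign in every setting tried, from −0.56 to −0.34 for *lin-54* minus wild type and from 0.31 to 0.57 for the double mutant minus *lin-54*. The 28 calls lower in *lin-54* than in wild type became 6 to 52 with an array left out, 14 by Benjamini-Hochberg, 50 with only the 2 genotypes modelled and 18 when shared probe sets were dropped (102 genes), and 1 gene was called higher without *lin-54* replicate 1 and 0 otherwise. Over all genes the 593 lower calls became 143 to 805 with an array left out, 385 by Benjamini-Hochberg and 755 with only the 2 genotypes modelled. Without shared probe sets they were 353 of 13593 genes. The 21 calls higher in the double mutant than in *lin-54* became 6 to 45 with an array left out and 6 with only the 2 genotypes in the model. Over all genes the 305 higher calls became 162 to 455 and 219 in these settings. *dgk-2*, which has 4 probe sets, differed between *lin-54* and wild type by −0.52 (q = 0.147) and by 0.38 (q = 0.0427) without *lin-54* replicate 1, when another probe set became the most significant; with 1 array left out its value ran from −0.64 to 0.38. Over the genes named, 2813 of 3176 values under other settings kept direction and call, 253 lost the call, 109 gained it and 1 was called the other way. Centring on autosomal genes moved the calls over all genes from 441 higher and 593 lower to 165 and 802 for *lin-54* against wild type, and from 305 and 195 to 334 and 100 for the double mutant against *lin-54*. Deviations of same-numbered arrays of different genotypes correlated at a median of 0.0973 (−0.0672 to 0.43, 9 of 18 over 0.1), against −0.037 for other pairs of arrays (−0.402 to 0.277, 3 of 36 over 0.1). The study collected and analyzed the genotypes in parallel, but the labels do not say whether same-numbered arrays belong together. The main test and the counts of non-overlapping arrays took no account of the replicate number, and a shared replicate effect was not tested. With the replicate number as a block, 35 of the 136 genes were called lower in *lin-54* than in wild type, against 765 of all genes. In the same setting 20 were called higher in the double mutant than in *lin-54*, against 338 of all genes. List counts were not recomputed under other settings. The number of arrays per genotype limits what the test can call.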
